A study of Homo sapiens with 6 samples.

Results

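The oxidative phosphorylation genes are the nuclear genes for the subunits of the 5 complexes of the mitochondrial inner membrane. They were taken by symbol: NDUF genes for complex I, SDH genes for complex II, UQCR genes for complex III, COX genes numbered for subunits 4 to 8 for complex IV and ATP5 genes for complex V. Of 11886 genes listed at all 3 times, 82 carried such a symbol, 37 of complex I, 4 of complex II, 10 of complex III, 12 of complex IV and 19 of complex V. All 82 were listed at every time and none was at 0 in any library. RNA came from U2OS, an established human osteosarcoma line, held for 24 h in 4 mM hydroxyurea, which stops DNA synthesis at the entry to S phase, and then washed into full medium. Cells carried siRNA against E2F7 (siE2F7) at 0, 3 or 12 h after the wash, or a control siRNA (siNT) at the same 3 times. Each arm had 1 library at each time, 6 in all, and every library shares the line and the hydroxyurea block. E2F7 is an E2F family factor that binds DNA without a DP partner and represses transcription, and the series asks what its loss does to transcript levels.

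Complexes I to IV pass electrons from NADH and succinate to oxygen, and complexes I, III and IV pump protons as they do so. Complex V, the ATP synthase, lets the protons back through a rotor and makes ATP. Most subunits are coded in the nucleus and a small core in mitochondrial DNA, so the 2 genomes have to supply parts that fit. Transcripts of mitochondrial DNA were not analysed here, as none of the 26 such symbols searched for was listed.

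The symbol rule also took in genes that code for no subunit. COX4NB is today's EMC8, part of the membrane protein insertase of the endoplasmic reticulum. ATP5S (DMAC2L) and ATP5SL (DMAC2) are assembly or coupling factors, and ATP5EP2, UQCRBP1, UQCRHL and ATP5L2 are copies of ATP5E, UQCRB, UQCRH and ATP5L that came from their mRNA or are very like it. These 7 were kept and are named where they matter. NDUFA4 was counted with complex I by its name, though its product is known as a subunit of cytochrome c oxidase. Of the 82 symbols 20 are older names, chiefly the ATP5 genes, and 14 of the genes share their locus with another entry, where reads may have been split.

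Levels are given in FPKM, fragments scaled by transcript length and library size, as the authors deposited them. The depth of the libraries is unknown. E2F7 (hg19, chromosome 12, 77415026 to 77459360) stood at 9.48, 10.6 and 5.52 FPKM in siE2F7 cells at 0, 3 and 12 h, against 20.3, 29.4 and 16.6 FPKM in siNT cells, a log2 change of -1.37 ± 0.10 (SE; limma, adjusted p = 0.0010). Among bone and mesenchymal markers 7 of 11 were listed, with sums of 1561 to 1647 FPKM in siE2F7 libraries and 1617 to 1712 in siNT libraries. ALPL, alkaline phosphatase, was called lower in siE2F7 cells (-0.37; limma, adjusted p = 0.043), where 7.13% of all genes were. At an unadjusted p under 0.05, 3 of the 7 were lower, where 16.7% of all genes were. VIM was at 763 to 883 FPKM in siE2F7 libraries and 759 to 886 in siNT libraries, and COL1A1 was at 261 to 358 FPKM in siE2F7 libraries and 304 to 376 in siNT libraries. The endothelial and most blood markers were not listed, and CD68 and LAPTM5 were at or under 7.19 FPKM. Of 4 listed epithelial genes, KRT8, KRT18 and CLDN4 were called lower in siE2F7 cells, where 7.13% of all genes were. The 4 summed to 203 to 224 FPKM in siE2F7 libraries and 245 to 303 in siNT libraries. Any part of them in the results below was not tested.

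The subunit genes were among the more abundant transcripts of these cells. Their median level, each gene averaged over the 6 libraries, was 72.6 FPKM, against 11.2 FPKM over all 11886 genes. Together they made up 2.04%, 1.94% and 1.97% of the summed FPKM in siE2F7 libraries at 0, 3 and 12 h, against 2.21%, 1.91% and 2.08% in siNT libraries. Levels spanned a wide range within the group. ATP5E, the epsilon subunit in the central stalk of the ATP synthase, was highest at a mean of 500.4 FPKM, and the ATP5L-like copy ATP5L2 was lowest at 5.73 FPKM. Complex IV genes had the highest median of the complexes at 145 FPKM, followed by complex V at 105 FPKM. The medians of complexes I, II and III were 54.3, 49.9 and 55.2 FPKM.

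Knockdown of E2F7 was compared with control over the 3 times in a limma fit of all 11886 genes, blocked by time, on a log2 scale after adding 0.1 to each FPKM. Of the 82 genes 5 were lower in siE2F7 cells at an adjusted p under 0.05, none was higher, and 77 did not pass. Of all genes the same test called 13.9%, 7.13% lower and 6.76% higher, so the count of lower genes is near the background. Without the adjustment, 11 of the 82 genes (13.4%) were lower and 0 higher at p under 0.05, where 16.7% of all genes were lower and 13.5% higher. The 5 genes were NDUFB3, NDUFC1 and NDUFS1 of complex I and ATP5H and ATP5C1 of complex V. Of the changes that did not pass, all lay between -0.30 and 0.18 on the log2 scale. P-values measure only the spread between these libraries, since nothing in the labels says that the times came from separate experiments. In bulk RNA, fewer cells of a kind and less RNA per cell cannot be told apart.

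ATP5H (ATP5PD; hg19, chromosome 17, 73034955 to 73043074) codes for subunit d of the peripheral stalk, which keeps the catalytic head of the ATP synthase from turning with the rotor. It had 156.03, 130 and 136 FPKM in siE2F7 cells at 0, 3 and 12 h, against 203.5, 157 and 179 FPKM in siNT cells. The highest siE2F7 value lay just under the lowest siNT value, so the arms did not overlap. The log2 change was -0.35 ± 0.066 (SE; limma, adjusted p = 0.016).

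NDUFS1 (hg19, chromosome 2, 206987803 to 207024243) codes for the largest subunit of complex I, which holds iron-sulfur clusters on the path of electrons from NADH. It had 32.1, 28.6 and 32.1 FPKM in siE2F7 cells at 0, 3 and 12 h, against 38.1, 35.0 and 37.7 FPKM in siNT cells. Every siE2F7 library was below every siNT library. The log2 change was -0.26 ± 0.064 (SE; limma, adjusted p = 0.038), and the 3 single-time ratios were alike at -0.25, -0.29 and -0.23.

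ATP5C1 (ATP5F1C; hg19, chromosome 10, 7830093 to 7849762) codes for the gamma subunit, the shaft that turns inside the catalytic head. It had 106, 90.2 and 92.4 FPKM in siE2F7 cells at 0, 3 and 12 h, against 129.99, 99.97 and 116 FPKM in siNT cells. Each siE2F7 library was below the siNT library of its time, but the arms overlapped, as the siNT library of 3 h lay below the siE2F7 library of 0 h. The log2 change was -0.26 ± 0.068 (SE; limma, adjusted p = 0.046).

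NDUFB3 (hg19, chromosome 2, 201936462 to 201950473) and NDUFC1 (hg19, chromosome 4, 140211071 to 140311935) code for small accessory subunits of the membrane arm of complex I. NDUFB3 had 46.3, 40.5 and 36.8 FPKM in siE2F7 cells at 0, 3 and 12 h, against 66.0, 43.3 and 52.5 FPKM in siNT cells. Its gap was wide at 0 and 12 h and narrow at 3 h, and the log2 change was -0.37 ± 0.095 (SE; limma, adjusted p = 0.041). NDUFC1 had 23.2, 18.0 and 22.0 FPKM in siE2F7 cells, against 33.3, 21.2 and 27.7 FPKM in siNT cells at the same times, with a log2 change of -0.36 ± 0.078 (SE; limma, adjusted p = 0.025). It too was lower at each time, with arms that overlapped, and its locus is shared with NAA15. All 5 calls were lost when the 0 h libraries were left out, where limma's adjusted p ran from 0.078 to 0.16, and all but NDUFC1 were lost without the 12 h libraries, where the other 4 ran from 0.086 to 0.21. They were also lost with no variance trend and with no time block, and NDUFC1 and NDUFS1 without the 3 h libraries.

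**Figure D1:**
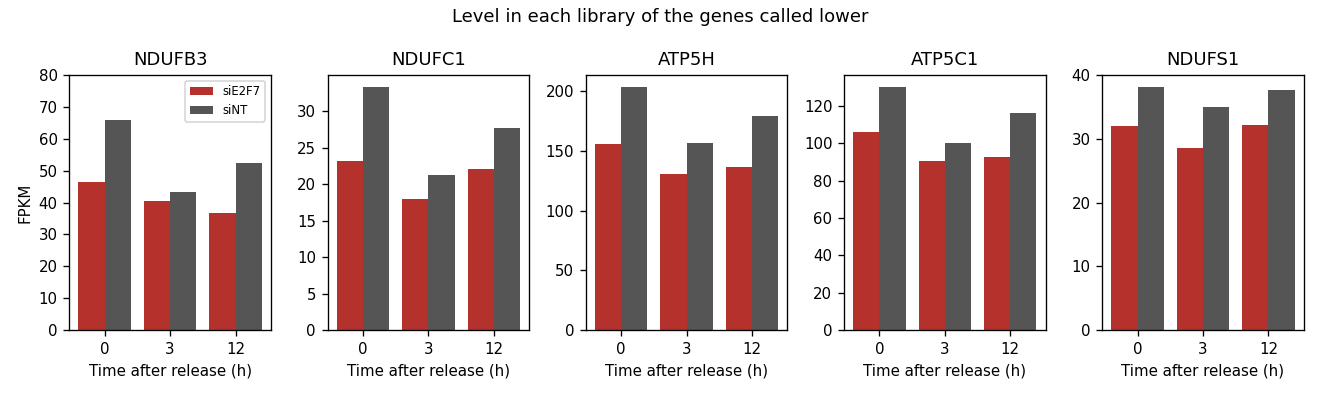
FPKM in each library (1 per bar) of the 5 subunit genes called lower, siE2F7 in red and siNT in grey, at 0, 3 and 12 h after release from hydroxyurea; each panel has its own axis, from 0. In all 5 genes the siE2F7 bar is below the siNT bar at each time, and for ATP5H and NDUFS1 every siE2F7 bar is below every siNT bar.

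The bases before the starts of these genes were read to show which words of known promoter factors they hold. Windows of 250 bases before to 50 after a start came from RefSeq (GRCh38.p14), and 64 of the 82 genes had at least 1. The first E2F word searched was TTCCCGC, the next E2F word was TTGGCGC, the one after it was TTGCCGC and the last was TTCGCGC, each taken on both strands. Those of the other factors were GCATGCGC for NRF1, CCGGAAG for ETS factors such as GABP and AAGATGG for YY1, also on both strands. NRF1 and GABP are known activators of respiratory chain genes. For word positions, 1 window of each called gene was read. The 250 bases before the start are printed for the 3 called genes with a word there, on the strand of the gene. Matches are in capitals. The 3 are NDUFS1 (GRCh38.p14, chr2:206159445-206159694, minus strand), ATP5H (chr17:75046970-75047219, minus strand) and ATP5C1 (chr10:7787927-7788176, plus strand).
NDUFS1: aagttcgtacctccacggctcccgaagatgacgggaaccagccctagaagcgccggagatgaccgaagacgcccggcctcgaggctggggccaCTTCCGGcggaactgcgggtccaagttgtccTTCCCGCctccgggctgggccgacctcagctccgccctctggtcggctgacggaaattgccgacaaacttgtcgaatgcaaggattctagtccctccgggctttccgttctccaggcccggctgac
ATP5H: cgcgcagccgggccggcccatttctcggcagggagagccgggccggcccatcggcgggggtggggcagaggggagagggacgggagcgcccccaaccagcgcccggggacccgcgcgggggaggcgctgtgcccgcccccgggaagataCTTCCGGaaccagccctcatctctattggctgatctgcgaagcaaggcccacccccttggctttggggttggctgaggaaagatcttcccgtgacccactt
ATP5C1: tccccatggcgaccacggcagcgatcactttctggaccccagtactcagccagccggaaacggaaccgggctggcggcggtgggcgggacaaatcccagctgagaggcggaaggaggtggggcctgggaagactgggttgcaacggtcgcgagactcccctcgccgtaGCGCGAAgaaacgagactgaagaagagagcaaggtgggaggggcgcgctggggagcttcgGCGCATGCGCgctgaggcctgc

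The NDUFS1 window holds an ETS word on the opposite strand, 157 bases before the start, and the E2F word TTCCCGC 126 bases before it. ATP5H holds an ETS word on the opposite strand, 101 bases before its start. ATP5C1 holds an E2F word on the opposite strand, 82 bases before its start, and a palindromic NRF1 site that matches on both strands, at 22 and 20 bases before it. NDUFC1 had an E2F word after its start in the window read, and NDUFB3 had none of the words in its window. NDUFC1 had 4 windows and NDUFS1 had 2, so these positions hold for only 1 start of each.

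For these shares a gene was counted if any of its windows held the word. Over the 64 subunit genes with a window, 23 (35.9%) held an E2F word, against 15.3% of all 27305 genes with a window and 25.8% of the 8215 other tested genes with one. NRF1 words stood in 14 (21.9%), against 3.68% of all genes and 6.81% of the other tested genes. For ETS words the count was 21 (32.8%), against 12.2% and 23.2% of the same sets. For YY1 words it was 18 (28.1%), against 7.11% and 9.84%. None of the words was in 16 of the 64. A match is a description of the letters and says nothing of binding in these cells.

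By complex, the fitted changes were small. The median log2 change was -0.07 in complex I, -0.11 in complex II, -0.02 in complex III, -0.03 in complex IV and -0.07 in complex V. Over the 82 genes it was -0.06, against -0.03 over all genes tested and -0.01 over the 1398 genes whose mean reached 50 FPKM. It was -0.02, -0.14 and -0.03 when the libraries of 0, 3 and 12 h were left out in turn, and that of complex III was 0.00 with each library centred on its median and 0.03 and 0.02 without the 0 h and the 12 h libraries. That of complex IV was 0.02 without the 0 h and 0.02 without the 12 h libraries. Of the 82 changes 63 (76.8%) were below 0, against 55.9% of all genes.

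**Figure D2:**
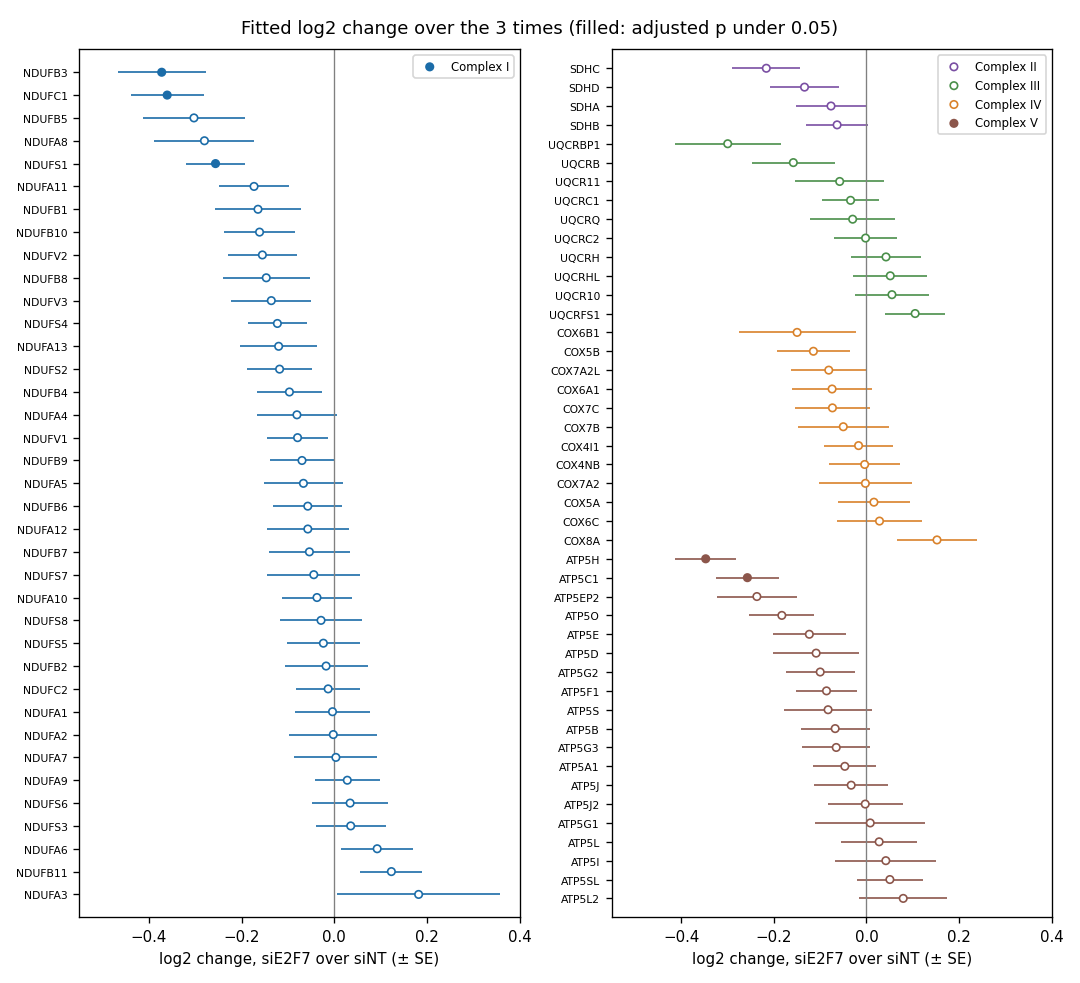
Fitted log2 change of each of the 82 genes over the 3 times, siE2F7 over siNT, with its SE, complex I on the left and complexes II to V on the right; filled points passed an adjusted p of 0.05. The 5 filled points lie between -0.37 and -0.26, and 63 of 82 points are left of 0.

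In complex I, 3 of 37 genes were lower and 34 did not pass, where 7.13% of all genes were lower and 6.76% higher. At an unadjusted p under 0.05, 5 of the 37 were lower and 0 higher, where 16.7% and 13.5% of all genes were. NDUFB5, an accessory subunit of the membrane arm, came next to the called genes, at 50.2, 43.1 and 29.5 FPKM in siE2F7 cells against 54.5, 47.5 and 46.4 FPKM in siNT cells. Most of its difference was at 12 h, with a single-time log2 ratio of -0.65, the lowest of any of the 82 genes at any time (fitted -0.30 ± 0.11, SE; limma, adjusted p = 0.11). NDUFA3, also an accessory subunit, had the highest fitted change and the most uneven ratios. It stood at 22.7, 19.99 and 17.6 FPKM in siE2F7 cells, against 17.9, 12.9 and 23.6 FPKM in siNT cells. It was above control at 0 and 3 h and below it at 12 h, and its ratio of 0.63 at 3 h was the highest single-time value of the group (fitted 0.18 ± 0.18, SE; limma, adjusted p = 0.53). NDUFB9 was the most abundant gene of complex I at a mean of 228 FPKM, with a log2 change of -0.07, and NDUFV3, which sits beside the NADH-binding subunits, the least at 8.09 FPKM, with -0.14. Neither passed. NDUFA4 had 85.7, 99.8 and 81.3 FPKM in siE2F7 cells, against 93.7, 90.7 and 96.8 FPKM in siNT cells, so it was above control at 3 h only, as were 11 of the 12 complex IV genes.

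Complex II, succinate dehydrogenase, also serves the citric acid cycle. None of its 4 genes passed the limma test, and 1 was lower at an unadjusted p under 0.05, where 16.7% of all genes were. SDHC, a membrane anchor, had 39.2, 36.0 and 33.8 FPKM in siE2F7 cells, against 49.1, 37.97 and 40.0 FPKM in siNT cells. It was below control at each time with overlapping arms (-0.22 ± 0.073, SE; limma, adjusted p = 0.092). SDHD, the other anchor and the most abundant of the 4 at a mean of 113 FPKM, had a change of -0.13. The iron-sulfur subunit SDHB stood at -0.06, the value nearest to 0, and the flavoprotein SDHA, the least abundant at 18.8 FPKM, at -0.08.

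In complex III none of 10 genes passed, and 1 was lower at an unadjusted p under 0.05, where 16.7% of all genes were. That was UQCRBP1, a copy of UQCRB, with 8.76, 10.1 and 10.1 FPKM in siE2F7 cells, against 13.5, 10.5 and 11.7 FPKM in siNT cells. The arms did not overlap, with -0.30 ± 0.11 (SE; limma, adjusted p = 0.13). UQCRFS1, the Rieske iron-sulfur protein, was highest in the complex by change, at 135, 108 and 128 FPKM in siE2F7 cells and 127, 95.5 and 123 FPKM in siNT cells. It was above control at every time (0.11 ± 0.064, SE; limma, adjusted p = 0.32). The hinge protein gene UQCRH was the most abundant at a mean of 262 FPKM. The copy UQCRHL took 15.6% to 16.4% of the sum of both in every library, and the changes of UQCRH and UQCRHL were 0.04 and 0.05. Reads of near-identical copies may have been split by the counting, so these levels are uncertain. The share of UQCRBP1 in its sum with UQCRB was 30.2% to 32.8% in siE2F7 libraries and 33.7% to 34.2% in siNT libraries.

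Complex IV reduces oxygen to water. None of its 12 genes passed the limma test, and 0 had an unadjusted p under 0.05, where 16.7% of all genes were lower and 13.5% higher. COX6B1, a subunit on the intermembrane side, had the lowest change and a wide spread, at 125.4, 141 and 120 FPKM in siE2F7 cells against 163, 117 and 153 FPKM in siNT cells (-0.15 ± 0.13, SE; limma, adjusted p = 0.47). Its siE2F7 level was below control at 0 and 12 h and above it at 3 h. COX8A had 181, 204 and 208 FPKM in siE2F7 cells, against 187, 161 and 186 FPKM in siNT cells. It had the highest change of the complex and was above control at 3 and 12 h (0.15 ± 0.087, SE; limma, adjusted p = 0.29). COX7C was the most abundant at a mean of 298 FPKM and COX4NB the least at 24.1 FPKM. Of subunits that exist in tissue forms, the ubiquitous forms COX4I1 (mean 236 FPKM), COX6A1 (204), COX6B1 (137), COX7A2 (123) and COX8A (188) were listed. The heart, lung or testis forms were not analysed here. COX7A2L, a relative of COX7A2 known as a supercomplex factor, was at a mean of 120 FPKM, and its change was -0.08.

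In complex V, 2 of 19 genes were lower and 17 did not pass, where 7.13% of all genes were lower. At an unadjusted p under 0.05, 4 were lower, where 16.7% of all genes were. The 4 included ATP5EP2, a copy of ATP5E (-0.24; limma, adjusted p = 0.11). The peripheral stalk gene ATP5O, which codes for the subunit that gives oligomycin sensitivity, had 180.0, 167 and 167 FPKM in siE2F7 cells, against 211, 175 and 198 FPKM in siNT cells. It was below control at each time (-0.18 ± 0.070, SE; limma, adjusted p = 0.13). The other stalk genes ATP5F1 (subunit b) and ATP5J (F6) stood at -0.09 and -0.03. The catalytic head genes ATP5B (beta) and ATP5A1 (alpha), at means of 314 and 167 FPKM, had changes of -0.07 and -0.05. ATP5G1, ATP5G2 and ATP5G3 code for the same mature c subunit of the rotor ring. ATP5G2 gave 45.0% to 49.5% of their sum in siE2F7 libraries and 48.0% to 50.1% in siNT libraries. Their changes were 0.01, -0.10 and -0.07, and ATP5G1 had the highest 3 h ratio of the complex at 0.39. The copy ATP5L2, the least abundant at a mean of 5.73 FPKM, was highest by change at 0.08 (limma, adjusted p = 0.62). It was above control at every time, and its locus is shared with CYB5R3.

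Single times differed more than the fitted changes. Each is a ratio of 1 library to 1 library, with no replicate and no test. At 0 h 74 of the 82 genes were below control in siE2F7 cells, where 55.5% of all genes were. At 3 h 23 of 82 were below control, where 49.9% of all genes were, and at 12 h 69 of 82, where 55.9% were. Of the 1398 genes of at least 50 FPKM, 62.2%, 30.0% and 60.3% were below control at 0, 3 and 12 h. The median log2 ratios of the 82 genes were -0.16, 0.10 and -0.11 at 0, 3 and 12 h, against -0.04, 0.00 and -0.04 over all genes and -0.06, 0.09 and -0.05 over the 1398 genes of at least 50 FPKM. The abundant genes had a 3 h median of nearly the same size and smaller ones at 0 and 12 h.

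Most single ratios were small. At least 1.25-fold lower were 8 of the 82 genes at 0 h, none at 3 h and 10 at 12 h, where 13.6%, 13.2% and 17.6% of all genes were. At least 1.25-fold higher were 1, 3 and 0 genes, where 9.56%, 11.6% and 13.5% of all genes were. In all, 21 of the 82 were below control at all 3 times, where 28.6% of all genes were, and 3 were above it at all 3, where 22.8% were. Those 3 were NDUFB11, UQCRFS1 and ATP5L2. Groups that did not overlap were found for 3 genes, all lower in siE2F7 cells (NDUFS1, ATP5H and UQCRBP1), where 8.76% of all genes were lower and 6.88% higher without overlap.

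The order lower, higher and lower at 0, 3 and 12 h is that of the medians of these 82 genes. It was not planned and was taken up after those medians were seen. All genes share the same 6 libraries, so its share is a description and not a test. The order was shown by 43 of the 82 genes (52.4%). Of all genes 11.9% showed it, and of genes of at least 50 FPKM 27.6%. It was found in 16 of 37 genes of complex I, 2 of 4 of complex II, 4 of 10 of complex III, 11 of 12 of complex IV and 10 of 19 of complex V. Quantile normalization of the libraries took the share to 32.9%, where 8.6% of all genes had the order, and the 3 h median to 0.03. It left 36 of the 82 genes below control at 3 h, where 6057 of all 11886 genes were. The share of genes of at least 50 FPKM with the order was not computed under quantile normalization. Under that scaling the 3 h medians of complexes II and V were below 0, at -0.05 and -0.02, against 0.00 and 0.04 as deposited.

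**Figure D3:**
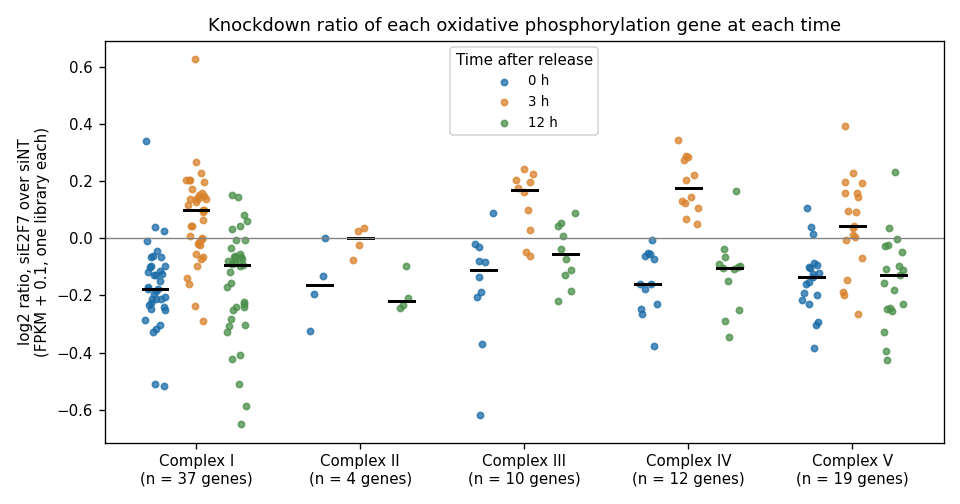
Log2 ratio of siE2F7 to siNT for each gene (points) at 0, 3 and 12 h, by complex, with the median as a bar; each ratio is 1 library over 1 library. The medians are below 0 at 0 and 12 h in all 5 complexes, and at 3 h they lie at 0.00 in complex II and between 0.04 and 0.17 in the others.

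In the siNT arm the subunit genes were lowest at 3 h. In siE2F7 cells 57 of the 82 genes were lower at 3 h than at 0 h, with a median log2 difference of -0.07. In siNT cells 80 of 82 were, with a median of -0.32. Over all genes 57.2% were lower in siE2F7 cells and 61.3% in siNT cells, with medians of -0.05 and -0.10. Of genes of at least 50 FPKM 47.3% and 72.2% were, with medians of 0.01 in siE2F7 cells and -0.13 in siNT cells. At 12 h 39 of 82 genes were below their 3 h level in siE2F7 cells and 3 of 82 in siNT cells. Of all genes 50.8% and 44.6% were, and of genes of at least 50 FPKM 59.7% and 32.2%. In complex IV the median log2 difference of 3 h over 0 h was 0.07 in siE2F7 cells, against -0.30 in siNT cells. It is not known whether the tables of different times were scaled together, and the times were not tested. With each library centred on its median, 47 of 82 in siE2F7 cells and 79 of 82 in siNT cells were lower at 3 h. Of all 11886 genes 5973 and 6558 were. Under quantile normalization the gap was narrower, with 60 of 82 lower in siE2F7 cells and 77 of 82 in siNT cells. The median log2 differences were then -0.10 and -0.24, and of all genes 6436 and 6316 were lower. Those of complex IV were -0.003 in siE2F7 cells and -0.17 in siNT cells.

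**Figure D4:**
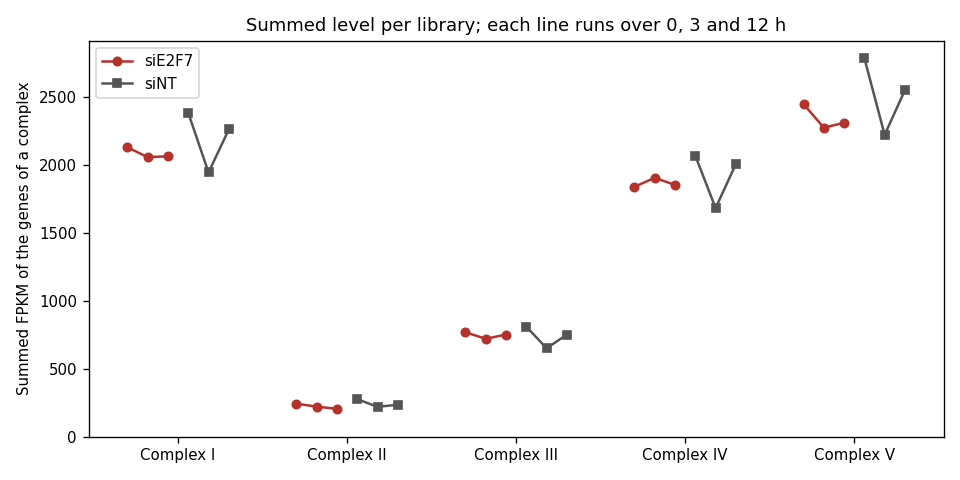
Summed FPKM of the genes of each complex in each library, siE2F7 in red left of siNT in grey, with lines over 0, 3 and 12 h. For all 82 genes the sums were 7418, 7168 and 7172 FPKM in siE2F7 cells and 8312, 6710 and 7794 FPKM in siNT cells, and the siNT line of each of the 5 complexes is lowest at 3 h.

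Short transcripts showed the same order more often. A GENCODE 29 length was found for 80 of the 82 genes and for 10211 tested genes. The median length of the 80 was 716 bases, against 1817 bases over all 10211, and 61 of the 80 were in the shortest of 4 equal classes of length. From the shortest to the longest class the order lower, higher and lower was found in 19.96%, 13.7%, 8.66% and 4.90% of genes, against 53.8% of the 80. The part that transcript length, abundance or the 3 h control library has in this was not tested.

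**Figure D5:**
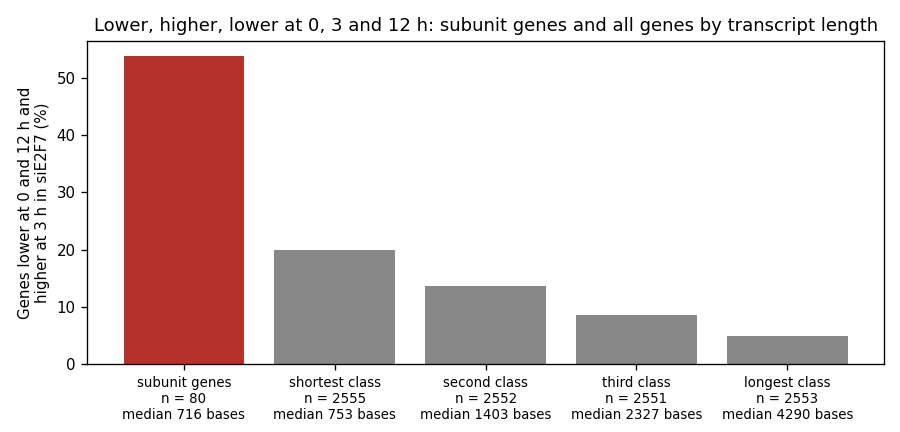
Share of genes with siE2F7 below siNT at 0 and 12 h and above it at 3 h, for the 80 subunit genes with a known length (red) and for all genes in 4 equal classes of transcript length (grey). The share is 53.8% in the subunit genes and runs from 19.96% in the shortest class to 4.90% in the longest.

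Other genes of the pathway gave few calls. Of 8 listed carriers and subunits that the symbols do not cover, among them cytochrome c (CYCS) and CYC1, none passed the limma test and 1 was higher and 0 lower at an unadjusted p under 0.05, where 13.5% and 16.7% of all genes were. Their median log2 ratios were -0.16, 0.16 and -0.04 at 0, 3 and 12 h. Of 17 genes of the citric acid cycle and pyruvate dehydrogenase, which feed the chain with NADH and succinate, none passed, 2 were higher and 1 lower at an unadjusted p under 0.05, and the median log2 ratios at 0, 3 and 12 h were 0.01, 0.11 and -0.04.

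From 5 lists of assembly factors and related genes, 46 were listed. Of these 4 were lower and 0 higher in the limma test, where 7.13% of all genes were lower and 6.76% higher. At an unadjusted p under 0.05, 10 were lower and 0 higher, where 16.7% and 13.5% of all genes were. NDUFAF1, which helps to build the membrane arm of complex I, had 3.19, 2.77 and 4.57 FPKM in siE2F7 cells, against 6.02, 4.18 and 6.60 FPKM in siNT cells. It was lower at each time, with arms that overlapped (-0.66 ± 0.12, SE; limma, adjusted p = 0.015). TMEM126B, of the same assembly complex, had 26.7, 21.8 and 26.3 FPKM in siE2F7 cells against 33.5, 30.4 and 33.0 FPKM in siNT cells, and did not overlap (-0.38 ± 0.070, SE; limma, adjusted p = 0.014). MNF1 (today UQCC2), of complex III assembly, and CHCHD8 (COA4), of complex IV assembly, had changes of -0.36 and -0.27 (limma, adjusted p = 0.030 and 0.049). By list, 2 of 13 factors of complex I, 0 of 3 of complex II, 1 of 5 of complex III, 1 of 21 of complex IV and 0 of 4 of complex V were lower.

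Of 16 listed regulators of respiratory and mitochondrial genes, 1 was higher, 2 were lower and 13 did not pass, where 6.76% of all genes were higher and 7.13% lower. GABPA, the DNA-binding subunit of GABP, had 11.5, 9.98 and 15.0 FPKM in siE2F7 cells against 7.26, 9.11 and 9.26 FPKM in siNT cells, higher at each time (0.49 ± 0.12, SE; limma, adjusted p = 0.038). Its locus overlaps ATP5J, and ATP5J itself stood at -0.03. POLG2, the accessory subunit of the mitochondrial DNA polymerase, and ESRRA, a nuclear receptor of oxidative metabolism, had changes of -0.36 and -0.28 (limma, adjusted p = 0.047 and 0.042). The locus of ESRRA overlaps TRMT112. The mitochondrial transcription factor TFAM and NRF1 did not pass, at -0.15 and -0.14.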

How the data were processed

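RNA of 6 U2OS libraries, 1 per arm and time, was analysed. The values are FPKM per gene, as deposited by the authors; both arms of a time list the same genes. Per the submitters' processing notes, CASAVA 1.8 and the hg19 (GRCh37) build were used; for the aligner, annotation, filters and scaling between times, nothing is given in the sources used here. FPKM summed to between 351305 and 375954 per library. Depth is unknown, so counting error could not be given.

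Genes were joined by symbol. Of 13161 genes listed at any time, 11886 listed at all 3 were tested in R 4.3.3 (limma 3.58.1) on a log2 scale, with 0.1 added to each FPKM, blocked by time, with a variance trend and Benjamini-Hochberg adjustment at 0.05; this scale understates the change of low genes. The fit had 2 residual and 5.41 prior degrees of freedom. Tests for read counts were not run on FPKM. Ratios at a single time have no test.

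The members and the lists were chosen with earlier results of these data known. Named are E2F7, every called gene, the extremes of change and level in each complex, paralog families, symbols that match without coding for a subunit, and called genes of the supporting lists. Genes named in the promoter, stalk and citric acid cycle passages beyond these serve as context and were chosen after their values were seen. The fits were repeated under 12 alternatives, and the single-time ratios under 6 added after the data were seen. Loci are hg19, counted from 1; RefSeq promoters are GRCh38.p14.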

Additional observations from a re-analysis of the deposited data

Results flagged for a closer look

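The median ratio of siE2F7 to siNT lay on different sides of 0 at different times. The difference between times was not tested, since each time has 1 library per arm. Median log2 ratios of all 82 genes were -0.157, 0.098 and -0.106 at 0, 3 and 12 h. For complex I they were -0.178, 0.098 and -0.093, and for complex II -0.163, 0.002 and -0.221. For complex III they were -0.110, 0.168 and -0.056. For complex IV they were -0.160, 0.174 and -0.103, and for complex V -0.134, 0.042 and -0.128. At 3 h complex II was near 0, with 2 of its 4 genes below control. Under quantile normalization the 3 h medians of complexes II and V were below 0, at -0.05 and -0.02. Genes of at least 50 FPKM had medians of -0.06, 0.09 and -0.05 at the same times.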

How the results depend on the processing

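The count of genes called lower, 5 as reported, was 3 over genes listed at any time, 0 with no variance trend and 0 with no time block. Leaving out the libraries of a time gave 0 to 4 lower and 0 to 1 higher. All 5 were lost with no variance trend (limma, adjusted p from 0.063 to 0.12) and with no time block (0.36 to 0.59). Without the 3 h libraries NDUFC1 and NDUFS1 were lost (limma, adjusted p = 0.054 and 0.15) and COX6B1 was called lower (-0.36). Without the 12 h libraries NDUFA3 was called higher (0.48). Quantile normalization added ATP5O (-0.19). With no time block all genes called fell to 15 higher and 17 lower, and E2F7 missed the threshold (limma, adjusted p = 0.12). The share of genes lower, higher and lower at 0, 3 and 12 h was 32.9% under quantile normalization, with a 3 h median of 0.0319, and centring each library took the 12 h median to -0.0704. The cause was not tested. Of the values of single genes under the alternatives, 884 kept their direction and side of the threshold and 60 that had not passed changed sign. Another 23, all of the 5 called genes, kept their direction and lost the call, and 3 of other genes gained one. The reported fit pairs the arms within each of the 3 times, and the calls rest on that pairing. Depth is unknown, so what it limits cannot be given.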
